A study of Mus musculus with 2 samples.

Results

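The 9 genes described here are Was, Coro1a, Plek, Pstpip1, Fgd2, Prkcb, Adgre5, Cd37 and Clec4a1, out of 17134 genes counted in small intestinal tuft cells. They were picked because they are best known from leukocytes, as actin regulators or membrane signalling genes, and because they had far fewer reads in the library lacking Spib than in its control. The difference between the libraries therefore chose these genes, and its size is given as a description. Tuft cells, rare chemosensory cells of the gut epithelium, were sorted as cells positive for EpCAM and Siglec-F from naïve mice. The Spib_KO library came from mice of genotype Spibfl/flVillin-cre and the WT library from mice of genotype Spib+Villin-cre, so both groups carried Villin-cre, a transgene that expresses Cre recombinase in the intestinal epithelium. Blood cells are not a known site of Villin-cre activity. The labels give neither the age of the mice, nor how many were behind a library, nor the deleted part of Spib. There was 1 library per genotype and no replicate, so no test between genotypes could be made, and every difference below describes these 2 libraries.

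Spi-B, the product of Spib, is an ETS transcription factor and a close relative of the haematopoietic factor PU.1, and both are known to bind sites with a GGAA core. The products of the 9 genes meet around cortical actin. In leukocytes, exchange factors such as Fgd2 load the small GTPase Cdc42, Cdc42 opens the Wiskott-Aldrich syndrome protein Was, and Was turns on the Arp2/3 complex, which branches actin filaments. Coro1a binds actin and the Arp2/3 complex, Pstpip1 curves membrane and binds Was, and Plek is a major substrate of protein kinase C, of which Prkcb encodes the beta isoform. Adgre5, Cd37 and Clec4a1 encode surface proteins, an adhesion receptor, a tetraspanin and a C-type lectin receptor.

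The 2 libraries held 17228665 reads assigned to genes in Spib_KO and 17925421 in WT. Spib had 48 reads in Spib_KO, or 2.80 CPM (reads scaled to a common library size), against 6266 reads or 348 CPM in WT. Of 10707 genes with enough reads to be measured (5 CPM and 30 reads in at least 1 library), the median log2 ratio of Spib_KO over WT was 0.01, with quartiles of -0.26 and 0.28. Epcam and Siglecf, the genes of the sort, had log2 ratios of -0.06 and 0.14. Of 29 measured tuft cell markers, 27 were neither higher nor lower by the 2-fold rule given below. Over all measured genes, 2.18% were lower and 2.33% higher. Plcb2 was lower, with 321 CPM in Spib_KO and 682 CPM in WT, a log2 ratio of -1.09. Tas1r3 was higher, with 13.8 CPM in Spib_KO and 3.72 CPM in WT, a log2 ratio of 1.88.

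The 9 genes lie on 7 chromosomes, and 3 of them, Coro1a, Prkcb and Cd37, lie on chromosome 7, where Spib is too. RefSeq promoter windows of build GRCm38.p6, running from 250 bases before to 50 bases after a start, were at hand for 8 of the 9 genes, all but Adgre5, with 9 windows in all because Coro1a has 2. The letters GAGGAA, the core of sites known for PU.1 and Spi-B, occurred on either strand in the windows of 5 of these 8 genes, Was, Plek, Fgd2, Cd37 and Clec4a1. Of all 32851 promoter windows in the reference, 28.3% held GAGGAA, and 26.0% of the 11121 windows of measured genes did. The longer GAGGAAGT, which contains GAGGAA, occurred in the windows of Fgd2 and Cd37 and in 3.20% of all windows. The bare core GGAA, which is part of both, was in the windows of 7 of the 8 genes, all but Prkcb, and in 96.0% of all windows. A match of letters is a description of the sequence and does not show that a factor binds there.

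The stretches from 250 bases before to 20 bases after the start are shown for the 4 genes with a GAGGAA match whose levels were furthest apart between the libraries. They are written 5′ to 3′ along the gene, with GAGGAA or its reverse complement TTCCTC in capitals. Was lies on the minus strand at chrX:8090472-8090741, Plek on the minus strand at chr11:17008699-17008968, Cd37 on the minus strand at chr7:45238820-45239089 and Fgd2 on the plus strand at chr17:29360664-29360933.
Was: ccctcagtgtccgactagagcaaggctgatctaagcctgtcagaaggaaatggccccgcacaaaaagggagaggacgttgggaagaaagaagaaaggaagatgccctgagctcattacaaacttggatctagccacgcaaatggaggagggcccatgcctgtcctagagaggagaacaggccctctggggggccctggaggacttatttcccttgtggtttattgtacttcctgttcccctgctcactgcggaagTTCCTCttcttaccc
Plek: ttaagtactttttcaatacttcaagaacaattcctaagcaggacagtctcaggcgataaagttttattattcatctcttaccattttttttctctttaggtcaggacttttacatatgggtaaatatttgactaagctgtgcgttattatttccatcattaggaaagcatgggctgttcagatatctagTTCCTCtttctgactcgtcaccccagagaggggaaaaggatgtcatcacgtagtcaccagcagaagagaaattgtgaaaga
Cd37: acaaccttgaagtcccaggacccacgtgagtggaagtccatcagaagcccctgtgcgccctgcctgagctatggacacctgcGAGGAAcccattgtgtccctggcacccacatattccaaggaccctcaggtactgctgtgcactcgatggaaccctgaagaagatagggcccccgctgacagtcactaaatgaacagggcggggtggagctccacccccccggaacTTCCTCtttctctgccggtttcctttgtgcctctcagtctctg
Fgd2: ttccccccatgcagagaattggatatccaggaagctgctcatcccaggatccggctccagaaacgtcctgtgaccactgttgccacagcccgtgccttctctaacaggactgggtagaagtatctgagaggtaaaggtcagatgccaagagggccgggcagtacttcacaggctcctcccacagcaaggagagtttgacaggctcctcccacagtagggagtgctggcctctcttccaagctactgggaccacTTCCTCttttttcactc
In Was and Fgd2 the TTCCTC begins 5 and 3 bases past the first transcribed base of the window. In Plek it begins 61 bases before the start, and in Cd37 it begins 23 bases before the start, with a GAGGAA that begins 168 bases before the start. Clec4a1 held TTCCTC at 217 and at 187 bases before its start. Coro1a, Pstpip1 and Prkcb held neither form in their windows. The window of Pstpip1, at chr9:56089726-56090025, and that of Cd37 lie inside the spans of these genes given below. These windows therefore do not cover the outer ends of the 2 genes.

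All 9 genes were measured, and all 9 were lower in Spib_KO, where 2.18% of all measured genes were lower by the same rule. The rule calls a gene lower when the whole 95% interval of its log2 ratio, which covers counting error only, lies beyond a 2-fold difference. At a 4-fold bound all 9 were again lower, against 0.822% of measured genes. Because the genes were chosen on this difference, nothing is read from these counts. Summed over the 9 genes, the libraries held 451 reads or 26.3 CPM in Spib_KO and 5782 reads or 321 CPM in WT, so that 8.18% of the WT level was left. In these sorted pools, fewer cells that express a gene and less RNA per cell cannot be told apart.

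**Figure D1:**
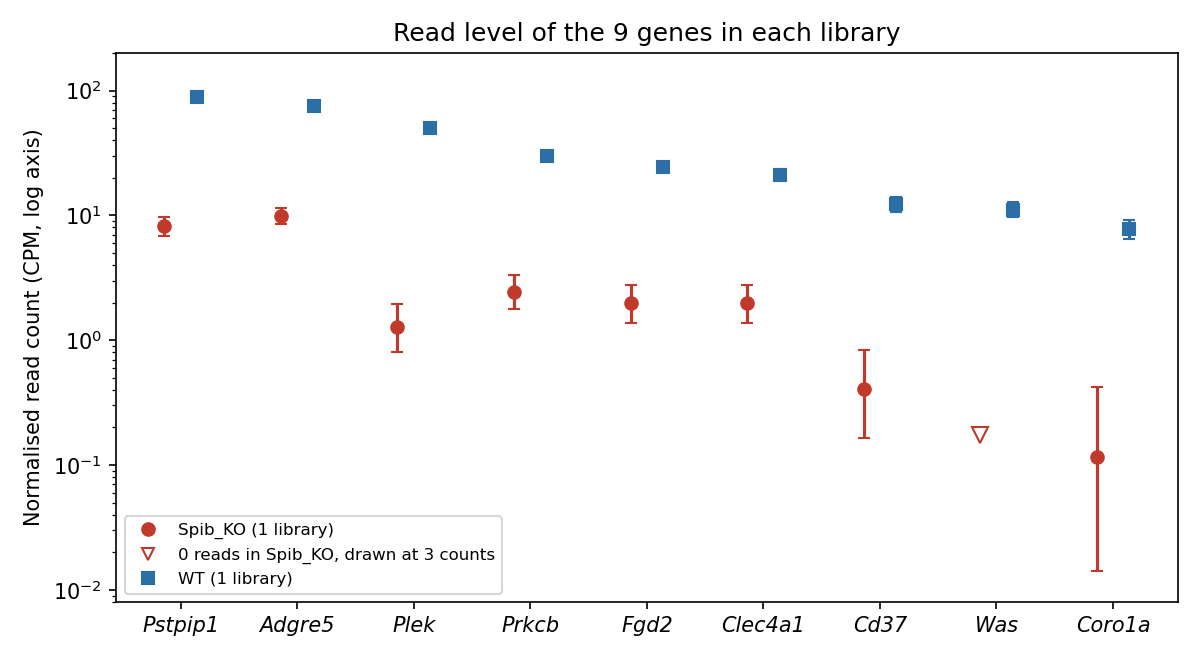
Normalised read counts (CPM, log axis) of the 9 genes, with Spib_KO as circles to the left of WT as squares for each gene, 1 library each. Bars are exact 95% Poisson intervals of the counts, and the open triangle marks Was, with 0 reads in Spib_KO, at the level of 3 counts. No interval of Spib_KO reaches that of WT for any gene.

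Was and Coro1a had the smallest shares of their WT level left. Was (gene 22376, chromosome X, 8081466 to 8090491), whose loss in humans causes Wiskott-Aldrich syndrome, had 0 reads in Spib_KO and 200 reads in WT, or 0 CPM against 11.1 CPM (95% Poisson interval in WT 9.63 to 12.8). Set against a floor of 3 counts in the Spib_KO library, which is 0.17 CPM, Was was at least 63.6-fold lower. Among the 10707 measured genes, 18 had 0 reads in Spib_KO.

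Coro1a (gene 12721, chromosome 7, 126699774 to 126704816) encodes coronin 1A, the coronin of leukocytes. It had 2 reads in Spib_KO and 139 reads in WT, or 0.12 CPM (0.014 to 0.42) against 7.72 CPM (6.49 to 9.12). The log2 ratio was -5.74, with a wide interval of -9.11 to -4.17 because it rests on 2 reads. Coro1a was the least abundant of the 9 genes in WT by CPM.

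Pstpip1 (gene 19200, chromosome 9, 56078445 to 56128890) encodes the F-BAR protein that links Was to tyrosine phosphatases of the PEST type. It was the most abundant of the 9 genes in WT, with 140 reads in Spib_KO and 1603 reads in WT, or 8.16 CPM (6.86 to 9.63) against 89.1 CPM (84.8 to 93.5). The log2 ratio was -3.44 (-3.71 to -3.20), and 9.16% of the WT level was left.

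Fgd2 (gene 26382, chromosome 17, 29360904 to 29379535) encodes an exchange factor that activates Cdc42. It had 34 reads in Spib_KO and 440 reads in WT, or 1.98 CPM (1.37 to 2.77) against 24.4 CPM (22.2 to 26.8), a log2 ratio of -3.61 (-4.17 to -3.12). Fgd2 thus kept 8.10% of its WT level.

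The protein kinase C pair had unlike shares left in these 2 libraries. Plek (gene 56193, chromosome 11, 16971206 to 17008718), pleckstrin of platelets and leukocytes, had 22 reads in Spib_KO and 910 reads in WT, or 1.28 CPM (0.80 to 1.94) against 50.6 CPM (47.3 to 54.0). Its log2 ratio was -5.27 (-5.98 to -4.69), leaving 2.54% of the WT level. Prkcb (gene 18751, chromosome 7, 122289104 to 122634402), the kinase gene, had 42 reads in Spib_KO and 542 reads in WT, or 2.45 CPM (1.76 to 3.31) against 30.1 CPM (27.6 to 32.8). Its log2 ratio was -3.61 (-4.11 to -3.17), leaving 8.13% of the WT level. The intervals of these shares, 1.58% to 3.86% for Plek and 5.79% to 11.1% for Prkcb, do not meet. They cover counting error only, and a difference between the 2 genes beyond these libraries was not tested.

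Among the surface proteins, Cd37 (gene 12493, chromosome 7, 45233632 to 45239340), a tetraspanin of B cells and other leukocytes, had 7 reads in Spib_KO and 220 reads in WT. That is 0.41 CPM (0.16 to 0.84) against 12.2 CPM (10.7 to 13.95), a log2 ratio of -4.81 (-6.24 to -3.84). Clec4a1 (gene 269799, chromosome 6, 122921848 to 122934619), a lectin receptor of the dendritic cell immunoreceptor family, had 34 reads in Spib_KO and 382 reads in WT, or 1.98 CPM (1.37 to 2.77) against 21.2 CPM (19.2 to 23.5). Its log2 ratio was -3.40 (-3.97 to -2.91).

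Adgre5 (gene 26364, chromosome 8, 83723245 to 83741311) encodes CD97, an adhesion G protein-coupled receptor that binds CD55. It had 170 reads in Spib_KO and 1346 reads in WT, or 9.91 CPM (8.47 to 11.5) against 74.8 CPM (70.9 to 78.9), a log2 ratio of -2.91 (-3.16 to -2.69). Adgre5 kept 13.2% of its WT level, the highest share of the 9 genes. It overlaps Ddx39a, a helicase gene with 232 CPM in Spib_KO and 199 CPM in WT. Of the stretches of 50 bases in the longest coding transcript of Adgre5, 16.03% also occur in transcripts of that gene, and reads without strand cannot be assigned between the pair.

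Ranked by the share of the WT level left, the order was Was, Coro1a, Plek, Cd37, Fgd2, Prkcb, Pstpip1, Clec4a1 and Adgre5. The intervals compared here cover counting error only, so the order describes these 2 libraries. The intervals of the first 4 overlap one another, as do those of Fgd2, Prkcb, Pstpip1 and Clec4a1. Cd37, with an interval of 1.33% to 6.99%, meets that of Fgd2 at 5.54% to 11.5%, while Plek does not. Adgre5, at 11.2% to 15.5%, lies above Pstpip1, at 7.65% to 10.9%, but not above Fgd2 or Clec4a1. The share of Adgre5 takes no account of reads that may belong to Ddx39a, which overlaps it. Spib itself kept 0.80% of its WT level (0.59% to 1.07%), below Plek, whose interval begins at 1.58%.

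Levels can be compared between genes only per length, as TPM, the length-corrected unit in the table the authors deposited. In WT, Pstpip1 was highest at 89.2 TPM, followed by Adgre5 at 33.7 TPM, Clec4a1 at 20.03 TPM, Plek at 16.4 TPM, Cd37 at 13.6 TPM and Fgd2 at 12.6 TPM. Was at 7.49 TPM, Coro1a at 6.78 TPM and Prkcb at 4.60 TPM were the lowest. In Spib_KO the highest were Pstpip1 at 8.23 TPM and Adgre5 at 4.47 TPM, then Clec4a1 at 1.83 TPM and Fgd2 at 1.14 TPM. The other 5 genes lay between 0 and 0.41 TPM. Summed, the 9 genes stood at 16.96 TPM in Spib_KO and 204 TPM in WT.

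**Figure D2:**
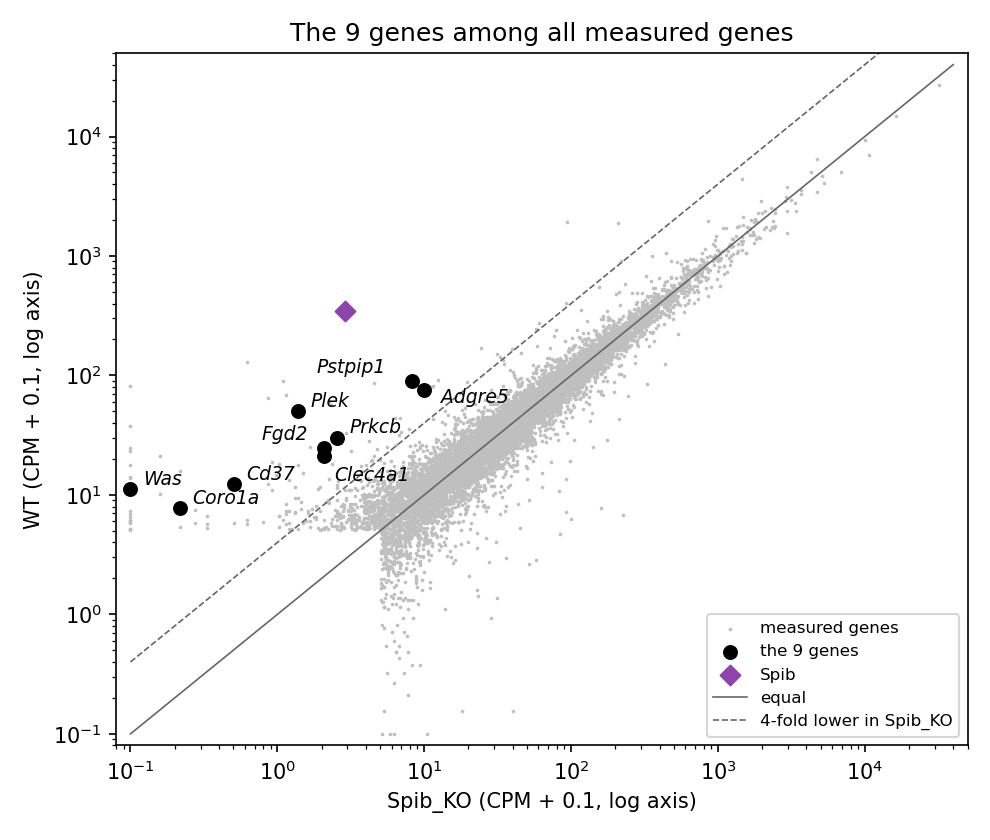
CPM + 0.1 in Spib_KO (x axis, log) against WT (y axis, log) for the 10707 measured genes in grey, the 9 genes in black and Spib as a diamond. The solid line marks equal levels and the dashed line a 4-fold lower level in Spib_KO; all 9 genes lie above the dashed line, with Was at 0 CPM in Spib_KO.

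Of 19 genes of the table that overlap or flank the 9 on the chromosome, 14 were measured, 0 were lower and 0 were higher, with log2 ratios between -0.73 and 0.71. Over all measured genes 2.18% were lower and 2.33% higher, so 14 genes are too few for this count to set them apart. Among the 5 below the minimum, Fbxo48, an F-box protein gene beside Plek, had 24 reads in Spib_KO and 0 in WT. Suv39h1, a histone methyltransferase gene next to Was, had 26.2 CPM in Spib_KO and 39.5 CPM in WT. Mapk3, which encodes the kinase ERK1 and lies next to Coro1a, had 181 CPM in Spib_KO and 144 CPM in WT. Tspan3, a tetraspanin gene 6994 bases from Pstpip1, had 291 CPM in Spib_KO and 248 CPM in WT. Ppp3r1, a calcineurin subunit gene beside Plek, had 69.0 CPM in Spib_KO and 69.1 CPM in WT, and Mtch1, beside Fgd2, had 73.4 CPM in Spib_KO and 47.95 CPM in WT.

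The families and partners of the 9 genes were described through 12 lists of 252 genes, of which 232 were in the table and 134 were measured. Of these 134 genes, 7 were lower and 4 were higher, or 5.22% and 2.99%, where 2.18% and 2.33% of all measured genes were. Without the minimum on level, 25 of the family and partner genes were lower and 9 higher, beside 4.18% lower and 3.48% higher over all genes with a read. Their median log2 ratio was -0.01, beside 0.01 over all measured genes. The median of the 9 genes was -3.61, and it was the same with Was set to its floor. The shares over all genes given here stand beside each list count below.

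The core machinery that Was drives was present in both libraries. Of 26 measured genes of the WASP, WAVE and Arp2/3 group, 0 were lower and 0 higher. The median log2 ratio was 0.03, with single genes between -0.90 and 0.74. With 2.18% lower and 2.33% higher over all measured genes, 26 genes are too few for this count to set them apart. The Arp2/3 subunit genes Arpc1b and Arpc5 had 479 and 454 CPM in Spib_KO and 567 and 365 CPM in WT, with log2 ratios of -0.24 and 0.31. Wasl, the widely expressed relative of Was, had 39.6 CPM in Spib_KO and 45.6 CPM in WT, a log2 ratio of -0.20 (-0.35 to -0.06). Wipf1, which encodes a partner that binds and stabilises Was, had 6.76 CPM in Spib_KO and 6.67 CPM in WT. Cdc42 had 361 CPM in Spib_KO and 342 CPM in WT.

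The other measured coronins had like levels in both libraries. Of 4 measured, 0 were lower and 0 higher, with log2 ratios between 0.03 and 0.22. Over all measured genes 2.18% were lower and 2.33% higher, so 4 genes are too few for this count to set them apart. Below the minimum, Coro2b had 30 reads in Spib_KO and 0 in WT, and Coro6 had 19 and 0, both with a bound past 2-fold higher. Coro1b had 351 CPM in Spib_KO and 301 CPM in WT, and Coro2a had 187 and 183 CPM in the same order. The widely expressed coronins stood far above Coro1a per length in WT, with 232 TPM for Coro1b and 63.0 TPM for Coro2a against 6.78 TPM for Coro1a.

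Among 11 measured F-BAR proteins and partners of Pstpip1 and Plek, 1 was lower, 0 were higher and the median was -0.09. The lower gene was Gas7, an F-BAR protein gene best known from neurons, with 21 reads or 1.22 CPM in Spib_KO and 208 reads or 11.6 CPM in WT, a log2 ratio of -3.21 (-3.96 to -2.59). Pstpip2, the closest relative of Pstpip1, had 40.1 CPM in Spib_KO and 53.5 CPM in WT, a log2 ratio of -0.41. Ptpn18, a phosphatase of the PEST type, had 1826 CPM in Spib_KO and 1948 CPM in WT. Plek2, the relative of Plek, had 51.6 CPM in Spib_KO and 41.7 CPM in WT, a log2 ratio of 0.31. Ptpn22, a lymphoid phosphatase of the PEST type, had too few reads to be measured, with 5 reads in Spib_KO and 84 in WT.

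Of 15 measured FGD genes and other exchange factors of Cdc42 and Rac, 1 was lower and 0 higher. Dock8, a Cdc42 exchange factor of lymphocytes, had 109 CPM in Spib_KO and 239 CPM in WT, a log2 ratio of -1.13 (-1.21 to -1.06). Vav1, a Rac exchange factor also known from lymphocytes, had 1039 CPM in Spib_KO and 1087 CPM in WT, a log2 ratio of -0.06. Fgd4 and Fgd6, relatives of Fgd2, had log2 ratios of 0.30 and -0.08. Of the other members of that family, Fgd1, Fgd3 and Fgd5 were below the minimum, at up to 1.44 CPM in WT.

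Of 8 measured genes of the other protein kinases C and D and their anchor Rack1, 0 were lower, 0 were higher and the median was -0.01. Prkca, the nearest relative of Prkcb, had 141 CPM in both libraries. In the pathway that Prkcb serves in B cells, 0 of 8 measured genes were lower and 0 higher. Plcg2, the phospholipase upstream, had 849 CPM in Spib_KO and 884 CPM in WT. Btk, a kinase gene of that pathway, was below the minimum with 5 reads in Spib_KO and 39 in WT.

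Around the surface proteins the picture was mixed. Of 9 measured adhesion receptors and ligands of Adgre5, 1 was lower and 1 higher. Cd55, whose product is bound by the Adgre5 receptor, was higher, with 50.8 CPM in Spib_KO and 20.8 CPM in WT, a log2 ratio of 1.28 (1.11 to 1.46). Adgrl2, a latrophilin gene, was lower, with 5.48 CPM in Spib_KO and 15.6 CPM in WT, a log2 ratio of -1.51 (-1.86 to -1.17). Adgre1, the relative of Adgre5 that encodes the macrophage antigen F4/80, had 13.4 CPM in Spib_KO and 7.50 CPM in WT, a log2 ratio of 0.83 (0.52 to 1.15). Adgre4, of the same subfamily, was below the minimum with 0 reads in Spib_KO and 29 in WT, as was the adhesion receptor gene Adgrg5 with 0 and 38. Without the minimum, this list had 4 lower genes and 1 higher among 22, beside 4.18% and 3.48% over all genes with a read. Its median was then -0.62 over the 18 genes above 3 reads in either library, with genes at 0 reads set to that floor, against 0.17 over the 9 measured. No median over all genes by this rule is given, here or for the lists below. Fewer genes had a read in Spib_KO (15437) than in WT (16085).

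Of 18 measured tetraspanins other than Cd37, 1 was higher and 1 lower. Tspan6 was higher, with 536 CPM in Spib_KO and 222 CPM in WT, a log2 ratio of 1.27 (1.22 to 1.33), and Cd151, which binds laminin-binding integrins, was lower, with 4.31 CPM in Spib_KO and 11.7 CPM in WT, a log2 ratio of -1.43 (-1.84 to -1.05). Cd53, the other tetraspanin best known from leukocytes, had 0 reads in Spib_KO and 10 in WT, while Tspan32, a tetraspanin of blood cells, had 29 reads in Spib_KO and 0 in WT. Of the C-type lectins only Clec2d and Clec2h were measured, with log2 ratios of -0.56 and -0.92. Clec4a2, the relative nearest to Clec4a1 on the chromosome among the genes counted, had 3 reads in Spib_KO and 6 in WT. Other relatives, such as Clec4a3 and Clec4a4, were not among the genes counted. No stretch of 50 bases of the Clec4a1 transcript occurs in a transcript of another gene.

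**Figure D3:**
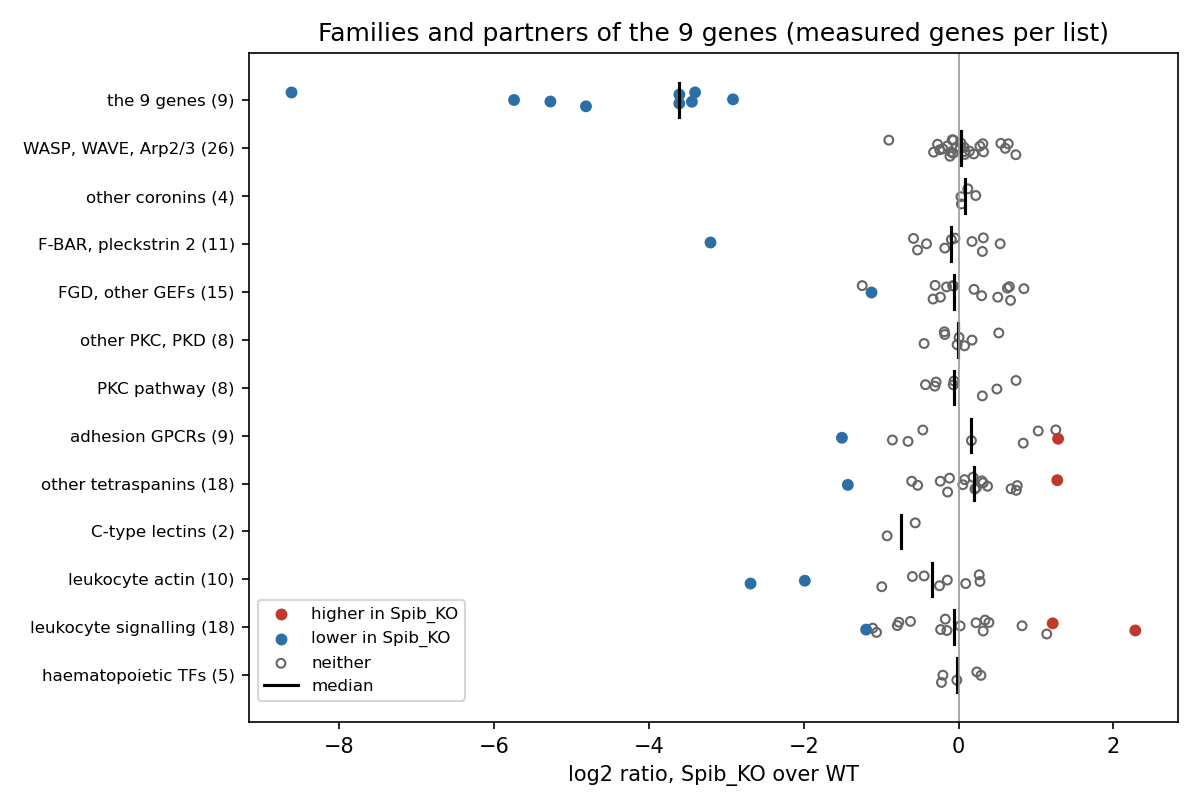
Log2 ratio of Spib_KO over WT for the measured genes of each list, with their number in parentheses. Filled points were higher or lower by the 2-fold rule and open points were neither; bars are medians, which lie between -0.74 and 0.20 for the 12 lists and at -3.61 for the 9 genes, where Was, with 0 reads in Spib_KO, is drawn at a value set by the prior count.

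Other actin regulators of leukocytes included further genes with lower counts in Spib_KO. Of 10 measured, 2 were lower, where 2.18% of all measured genes were, 0 were higher and the median was -0.35. Capg, an actin-capping protein gene, had 34.3 CPM in Spib_KO and 136 CPM in WT, a log2 ratio of -1.99 (-2.12 to -1.86). Themis2, a signalling adaptor of B cells and macrophages, had 19 reads in Spib_KO and 131 in WT, a log2 ratio of -2.69 (-3.49 to -2.02). Rac2, the Rac of blood cells, had 563 CPM in Spib_KO and 667 CPM in WT, and the adaptor gene Fyb had 920 and 1253 CPM in the same order, with log2 ratios of -0.25 and -0.45. The other 17 genes of this list in the table were below the minimum, and 5 of them had an interval bound past 2-fold lower. These were Sash3 with 0 reads in Spib_KO and 76 in WT, Lsp1 with 2 and 23, Rhoh with 2 and 22, Myo1f with 0 and 17, and Hcls1 with 0 and 13, in the same order. Without the minimum 7 of 27 genes were thus lower and 0 higher, beside 4.18% and 3.48% over all genes with a read. The median was then -1.24 over the 25 genes above 3 reads in either library, with genes at 0 reads set to that floor.

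Of 18 measured signalling genes known from leukocytes, 1 was lower and 2 were higher. Ptpn6, the phosphatase SHP-1, was lower, with a log2 ratio of -1.19. The Src family kinase gene Fgr was higher, with 90 reads in Spib_KO and 19 in WT, a log2 ratio of 2.28 (1.59 to 3.11), and Ptprc, which encodes CD45, was higher with a log2 ratio of 1.22. Below the minimum, Laptm5, Tyrobp and Selplg had bounds past 2-fold lower, and Bin2 and Fyn past 2-fold higher.

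Of 13 haematopoietic transcription factors in the table, 5 were measured, with 0 lower, 0 higher and a median of -0.02. Among the 8 below the minimum, Ets1 had 0 reads in Spib_KO and 25 in WT, and Spi1, which encodes PU.1, had 1 read in Spib_KO and 18 in WT, both with a bound past 2-fold lower. Without the minimum the median was -0.58 over the 12 genes above 3 reads in either library, with genes at 0 reads set to that floor.

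Markers of leukocytes that the sort could have carried along also differed between the libraries. Of 16 T cell and intraepithelial lymphocyte markers in the table, 5 were measured. Of these 5, 4 were lower, where 2.18% of all measured genes were. Without the minimum, 8 of the 16 were lower and 0 higher, beside 4.18% and 3.48% over all genes with a read. Summed over the 16, the level was 15.7 CPM in Spib_KO and 62.8 CPM in WT, or 25.1% of WT. Lck, a kinase gene that is also in a family list, gave 7.87 CPM of this sum in Spib_KO and 4.45 CPM in WT, and without it the other 15 stood at 7.87 CPM in Spib_KO and 58.3 CPM in WT, or 13.5% of WT. Gzma, a granzyme gene, had 22 reads or 1.28 CPM in Spib_KO and 317 reads or 17.6 CPM in WT, and Ccl5, a chemokine gene, had 13 reads in Spib_KO and 219 in WT. The defining T cell gene Cd3e had 3 reads in Spib_KO and 9 in WT, Cd3g had 11 and 61, and Cd3d had 0 and 20. Below the minimum, Cd3g, Cd3d, Gzmb and Nkg7 had bounds past 2-fold lower. Other T cell markers had more reads in Spib_KO: Lck had 135 in Spib_KO and 80 in WT, Cd8b1 had 15 and 3, and Cd2 had 11 and 2. None of these was called higher. Of the 72 genes of the 7 marker lists in the table, 4 (Adgre1, Il17rb, Itgam and Lck) also belong to a family or tuft cell list used here. The part of these cells in the lower level of the 9 genes was not tested.

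The sums of the B cell, macrophage and dendritic cell, granulocyte, mast cell and innate lymphoid markers were lower in Spib_KO, at 34.1% to 84.8% of WT. The platelet sum was higher, at 168% of WT. Of 9 B cell markers 0 were measured, with a sum of 5.19 CPM in Spib_KO and 7.61 CPM in WT. Cd79a had 0 reads in Spib_KO and 7 in WT. Below the minimum, Cd79b and Fcmr had bounds past 2-fold lower, and Pax5 had a bound past 2-fold higher. Of 17 macrophage and dendritic cell markers 4 were measured and 1, Lyz2, was lower, with 9 reads in Spib_KO and 110 in WT. Their sum was 64.2 CPM in Spib_KO and 83.4 CPM in WT. Of this sum the protease gene Ctss gave 37.9 CPM in Spib_KO and 44.7 CPM in WT. The receptor gene Csf1r had 0 and 5 reads in the same order. Adgre1, also of this list, went the other way, with 13.4 CPM in Spib_KO and 7.50 CPM in WT, and was not called. Neutrophil and eosinophil markers summed to 2.21 CPM in Spib_KO and 2.61 CPM in WT, and mast cell markers to 1.57 CPM in Spib_KO and 4.61 CPM in WT, with Cpa3 at 0 reads in Spib_KO and 10 in WT. Platelet markers summed to 20.7 CPM in Spib_KO and 12.3 CPM in WT, most of it Gp1bb at 17.1 and 9.84 CPM, and Ppbp had 0 reads and 1 read. Innate lymphoid and NK cell markers summed to 333 CPM in Spib_KO and 470 CPM in WT, most of it the cytokine receptor gene Il17rb, itself a tuft cell gene, at 302 and 413 CPM, with a log2 ratio of -0.45. Gata3 had 0 reads in Spib_KO and 4 in WT.

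Several genes expressed across leukocytes were scarce in the WT library beside the 9 genes, while others were not. Per length in WT, Laptm5 stood at 1.34 TPM, Tyrobp at 3.56 TPM, Cd52 at 2.97 TPM, Arhgdib at 0.87 TPM, Itgb2 at 0.22 TPM and Fermt3 at 0.11 TPM, against 89.2 TPM for Pstpip1 and 4.60 TPM for Prkcb, the highest and lowest of the 9. In Spib_KO the same 6 genes stood at 0.09, 0, 1.46, 0.19, 0.74 and 0.03 TPM. Lcp1, the leukocyte actin bundler, stood at 3.16 TPM in Spib_KO and 6.35 TPM in WT, and Ptprc stood at 58.7 TPM in Spib_KO and 25.1 TPM in WT. Fcer1g stood at 2.08 TPM in Spib_KO and 6.73 TPM in WT, where Coro1a stood at 6.78 TPM in WT. Among the T cell and intraepithelial lymphocyte markers in WT, Ccl5 stood at 49.3 TPM and Gzma at 33.65 TPM, within the range of the 9 genes, while Cd3g stood at 5.33 TPM, Cd3d at 1.26 TPM and Cd3e at 0.51 TPM. These leukocyte genes and markers were named after their values were seen.

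**Figure D4:**
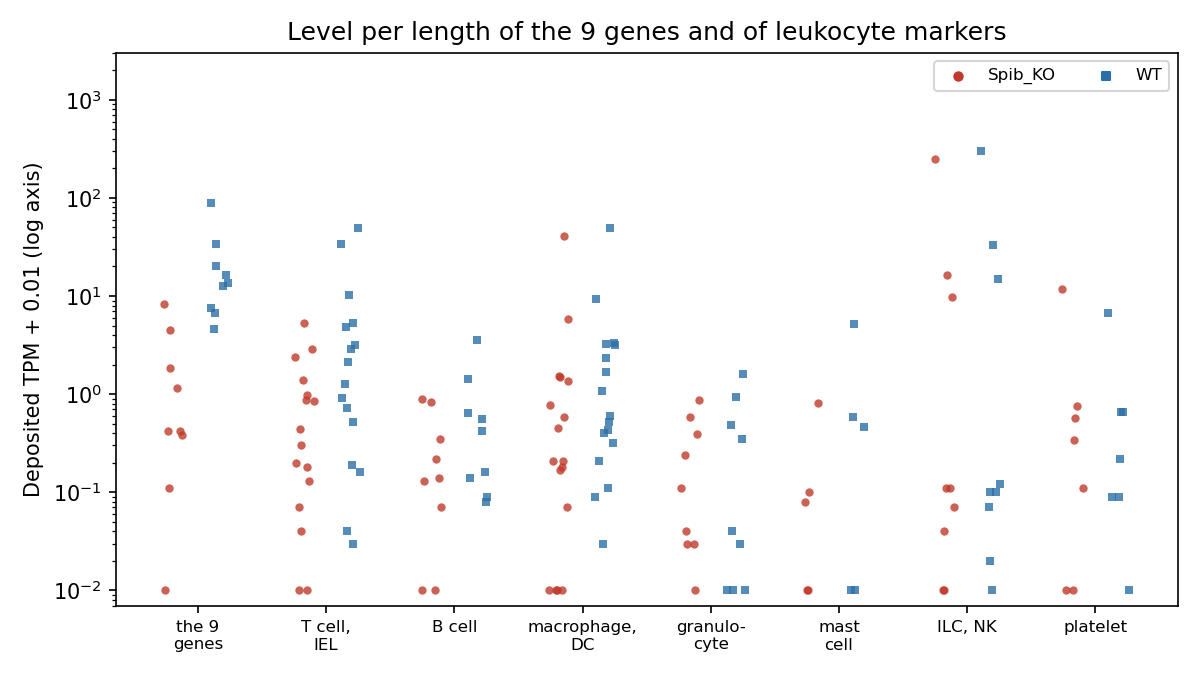
Deposited TPM + 0.01 (log axis) of the 9 genes and of all genes in the table from 7 marker lists, with Spib_KO as circles left of WT as squares. The 9 genes lie between 4.60 and 89.2 TPM in WT, where Ccl5 at 49.3 TPM is the highest T cell or intraepithelial lymphocyte marker and Cd79b at 3.58 TPM the highest B cell marker.

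The 10 genes nearest to the median level of the 9 in both libraries, by distance on the log2(CPM + 0.5) scale, were Ank2, Defa29, Rbms3, Pmel, Rgs19, Gzma, Sst, Abca1, Gpam and Zfp967. Over only 2 libraries, likeness of this kind rests on 2 values per gene. Ank2, which encodes an adaptor of the spectrin skeleton, was nearest, with 27 reads or 1.57 CPM in Spib_KO and 450 reads or 25.01 CPM in WT, at a distance of 0.26. Rgs19, which limits signalling by G proteins, had 49 reads in Spib_KO and 591 in WT, a log2 ratio of -3.51 (-3.97 to -3.10). Defa29, a Paneth cell defensin, and Sst, the hormone somatostatin, had log2 ratios of -3.34 and -3.41, so genes of other cell types of the epithelium shared these levels. Gzma, a T cell and intraepithelial lymphocyte marker above, shared them too, with a log2 ratio of -3.75. By the interval bound nearest to 0, the 9 genes ranked between the 12th and the 57th lowest of the measured genes.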

How the data were processed

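TRIzol extraction, Smart-seq2 type cDNA amplification and transposase library construction are recorded per the labels' protocols. No molecular identifiers are named, and strand is not kept by this chemistry. HISAT and Bowtie2 2.2.3 with build mm10 are listed per the submitters' processing notes; how reads were counted, and on which annotation, is not stated there. The authors deposited an estimated count of reads, TPM and FPKM for 17134 genes, per the file headers. Values were not whole for 18.6% of genes in Spib_KO and 19.0% in WT, and counts were rounded. The deposited TPM values gave levels per length, and the deposited TPM and FPKM values served as alternatives, as log2(value + 1).

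Counts were scaled by TMM (edgeR 4.0.16, R 4.3.3). The log2 ratio sets Spib_KO over WT, with 0.5 as the prior count, and its 95% interval is the exact conditional binomial (Clopper-Pearson) one. CPM intervals are exact Poisson. Intervals and floors cover counting error only, since amplified reads are not independent molecules. With 1 library per genotype no p-value is given. A gene was measured at 5 CPM and 30 reads in at least 1 library, and called when the interval bound nearest 0 was past 2-fold. The procedure was tested on simulated counts drawn with Poisson error only, which hold no spread between libraries or from amplification. Software was scipy 1.17.1, numpy 2.4.6, pandas 2.3.3 and matplotlib 3.10.9 in Python 3.11.15, with DESeq2 1.42.0 for alternative size factors.

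Members and lists were chosen with earlier results of these data known. Named were the 9 genes, Spib, Epcam and Siglecf, up to 4 called genes of each list or its 2 most abundant, chromosome neighbours and the 10 genes nearest in level. Others were named after their values were seen, and a few named by the rule are not reported here. Sequences and positions are from RefSeq (GRCm38.p6), with 17087 gene identifiers matched, and shared stretches were sought on either strand in GENCODE transcripts of the same build. Of the transcript of Was, 3.20% of stretches of 50 bases occur in other genes.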

Additional observations from a re-analysis of the deposited data

How the results depend on the processing

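All 9 genes were lower in Spib_KO under each alternative run on their log2 ratios, and none changed sign. DESeq2 size factors, total counts and upper quartile factors shifted log2 ratios by -0.01 to 0.01. All 9 stayed called under these, under thinning of the deeper library and at a 4-fold bound. They also stayed called with a prior count of 5, no minimum, the point estimate and removal of marker genes, but these settings could not undo a call. The prior count does not enter the interval, all 9 already passed the minimum with intervals past 2-fold, and none is a marker gene. With a minimum of 20 CPM 6 were called, because Was, Coro1a and Cd37 fall under it, and with deposited TPM or FPKM 8 were, because Prkcb is under the minimum of 5. The median log2 ratio of the 9 was -2.89 with TPM and -2.78 with FPKM, where the added 1 pulls low values together. A prior count of 5 moved Was to -5.32, so its fitted ratio is no measure of size.

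Over all genes, 233 were lower and 250 higher. No minimum gave 716 lower and 595 higher, a minimum of 20 CPM 106 and 101, the point estimate 419 and 425, and a 4-fold bound 88 and 65, since these rules admit more or fewer genes. FPKM gave 165 higher, and the cause was not tested. In the family and partner lists, 7 lower and 4 higher became 25 and 9 with no minimum. A minimum of 20 CPM left 3 lower, a 4-fold bound 2 lower and 0 higher, and the point estimate gave 7 higher. Leaving out Lck, an alternative chosen after seeing the data, moved the summed T cell marker level to 13.5% of WT, against 25.1%. Of 185 list medians under alternatives 14 changed sign, in 7 of 17 lists. No paired analysis was possible because each genotype has 1 library. Leaving out a library was not possible for the same reason. Counts of 0 to 7 reads, as in Was, Coro1a and Cd37, limit the precision of those ratios.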
